A study of Homo sapiens with 4 samples.

Results

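A set of 4052 genomic regions gained ATAC-seq signal over untreated K562 cells with doxorubicin (Doxo) and with aclarubicin (Acla), but was absent from the regions listed as gained with N,N-dimethyldoxorubicin (diMe-Doxo). They were picked by identical coordinates from the authors' 3 lists of gained regions and are 4.04% of the 100205 regions in any list. The choice rests on measured values, namely the gain over control with Doxo, the gain over control with Acla, and a missing entry for diMe-Doxo. Those values are therefore described here and not tested.

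The cells were K562, an established human line from a chronic myeloid leukaemia, and ATAC-seq reports where a transposase can cut open chromatin. Groups were Doxo at 10 µM for 4 h, diMe-Doxo at 10 µM for 4 h, Acla at 20 µM for 4 h, and a control with no drug. GEO holds 1 sample for each group, and the lists carry 2 libraries for each. The labels do not say that these libraries came from separate cultures, so every p-value measures only the spread between libraries, which may be technical.

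Anthracyclines slide their flat rings between DNA base pairs while the sugar lies in the minor groove. Doxorubicin traps topoisomerase II on cut DNA, which leaves double-strand breaks, and it also evicts histones from chromatin. In diMe-Doxo the amino group on the sugar bears a pair of methyl groups. Aclarubicin also carries a dimethylated amino sugar, within a longer sugar chain on a different ring system. Both dimethylated compounds are known for histone eviction with little or no DNA breakage.

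The regions are therefore shared by the break-forming drug and 1 of the 2 dimethylated ones. The lists give no diMe-Doxo signal at them, so a gain with diMe-Doxo just under the limits of its list cannot be told apart from no gain. A comparison of Doxo with diMe-Doxo at their matched dose could not be made at these regions for the same reason. No genome or gene annotation of GRCh37, the build of the lists, was used here, so regions are named by coordinates as listed and no gene or sequence is given.

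Of the 32787 regions that Doxo and Acla shared, the 4052 missing for diMe-Doxo made up 12.4%, and the other 28735 were gained with all 3 drugs. By comparison, 4405 regions were gained with Doxo and diMe-Doxo only and 14667 with diMe-Doxo and Acla only. A further 29528 were gained with Doxo only and 13841 with Acla only. The smallest of these combinations was therefore the one that pairs Doxo with Acla.

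The Doxo and Acla only regions were narrower than those of all 3 drugs and mostly had no peak in untreated cells. Their median width was 718 bp (quartiles 524 and 989 bp, range 150 to 4273 bp), against 1019 bp for the regions of all 3 drugs. They covered 3.27 Mb, against 31.6 Mb. The authors had called no control peak at 3729 of them (92.0%), against 88.8% of the regions of all 3 drugs. Both control libraries had a peak at 108 (2.67%), and 1 of them did at 215. At 1543 regions (38.1%, against 31.4%) each control library stood at 1 read, its lowest listed value. Neither trait set them apart from all other combinations. Median widths were 600 bp for the Doxo only and 655 bp for the Acla only regions, and no control peak was called at 92.2% of the diMe-Doxo and Acla only and 95.1% of the Acla only regions.

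The lists were normalised separately. For a common scale, signal was put on that of the controls that they share, in normalised reads per region, by multiplying the Acla values by 0.5356. At the Doxo and Acla only regions the medians were 16.3 and 16.9 in the Doxo libraries, 13.6 and 11.5 in the Acla libraries, and 1.44 and 1.39 in the control libraries, where the last pair of values is the worth of 1 read. All 4 treated medians lay above both control medians, as the rule requires, and both Acla medians lay below both Doxo medians. The regions of all 3 drugs had more signal in every treated library, with medians of 24.2 and 25.3 with Doxo and 23.8 and 21 with Acla, over the same control medians. The pooled SD between libraries of a group was 0.48 with Doxo, 0.36 with Acla and 1.14 in the control on the log2 scale.

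**Figure D1:**
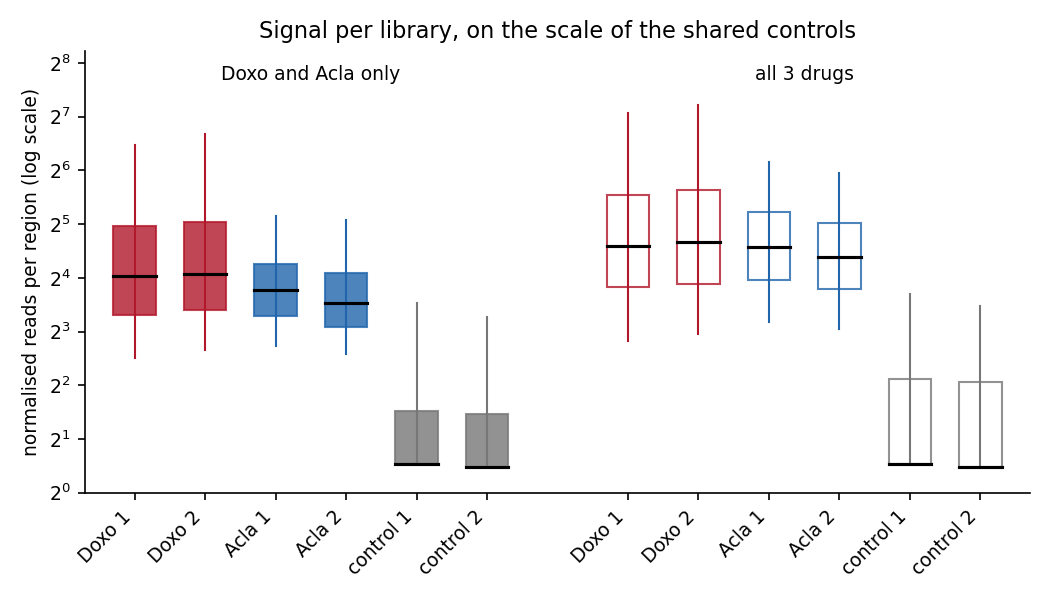
Normalised reads per region (log axis) in each of the 6 libraries, for the 4052 Doxo and Acla only regions (filled, left) and the 28735 regions of all 3 drugs (open, right). Boxes span the quartiles, black lines are medians and thin lines run from the 5th to the 95th percentile over regions. Treated boxes on the left sit lower than their counterparts on the right, with medians of 16.3 against 24.2 in Doxo library 1 and 13.6 against 23.8 in Acla library 1, while the control medians are equal.

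In the authors' deposited lists the median log2 fold over control of these regions was 2.70 with Doxo (quartiles 2.35 and 3.34, range 1.52 to 7.77) and 2.34 with Acla (quartiles 2.04 and 2.68, range 1.5 to 4.25). The regions of all 3 drugs had medians of 3.13 and 2.95. Median false discovery rates (FDR) in the authors' lists were 0.0318 with Doxo and 0.0359 with Acla, against 0.00779 and 0.00452 for the regions of all 3 drugs. The set thus sits closer to the limits of the lists, a p of 0.05 and a log2 fold of 1.5. At FDR of at most 0.01 and log2 fold of at least 2 in both lists, 114 of the 4052 remained. They were 1.09% of the 10445 Doxo and Acla regions that pass those limits. That count keeps the looser limits for the diMe-Doxo list, so the low share is partly built in. With the stricter limits in all 3 lists, 1301 of the 10445 did not pass with diMe-Doxo.

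Strong gain with each drug rarely met in the same region. A log2 fold of at least 4 with Doxo was listed by the authors for 569 of these regions (14%), and a log2 fold of at least 3 with Acla for 448 (11.1%). Only 24 (0.592%) met both, against 11.6% of the regions of all 3 drugs. High Acla folds were more common outside the set. An Acla log2 fold of 3.5 or more was listed for 24.2% of all shared regions, and 80 of these 7920 were in the set. The contrast thus partly restates the lower Acla folds of the set, on values that the rule used. The limits of 4 and 3 were set after the values had been seen.

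The share of Doxo and Acla regions that the diMe-Doxo list leaves out followed the size of the Acla gain. It was 29.3% of regions with an Acla log2 fold under 2, 22.4% from 2 to 2.5, 13% from 2.5 to 3, 5.79% from 3 to 3.5 and 1.01% (80 of 7920) from 3.5 up, all by the authors' lists. By the Doxo fold it was 23.5% under 2, 7.51% from 3.5 to 4, 9.21% from 4 to 5 and 6.03% from 5 up, so it did not fall at every step. It was 28.6% of regions under 500 bp wide and 4.66% (21 of 451) of those of 2500 bp or more. These are counts over regions of the same libraries and carry no test.

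Where both control libraries stood at 1 read, the lowest gain that entered each list can be read off, though no single fold marks the limit. The lowest listed log2 fold was then 2.32 in the authors' Doxo list, 2.13 in their diMe-Doxo list and 2.13 in their Acla list. Among the 1247 such regions with a diMe-Doxo p between 0.04 and 0.05, the highest log2 fold was 2.48. The 1543 Doxo and Acla only regions with these controls had median log2 folds of 2.81 in the authors' Doxo list and 2.65 in their Acla list. Since the lists were normalised separately, folds of different lists are set side by side here and not compared.

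Regions just inside and just outside the limits show how fine the selection is. Just inside, chr6:166127991-166128750 had the lowest Doxo log2 fold, 1.52, with a p of 0.047 in the authors' list, and chr22:23199498-23200723 the lowest Acla log2 fold, 1.5, with a p of 0.0182 in the authors' list. The authors' lists gave the highest Doxo p, 0.05, to chr6:162659292-162660287 and the highest Acla p, 0.05, to chr12:103524294-103524721. Just outside, chr2:37005263-37006422 and chr6:2947947-2949225 were listed for all 3 drugs with a diMe-Doxo log2 fold of 1.5 and p of 0.0403 in the authors' list. Their Doxo log2 folds were 2.04 and 4.42 and their Acla log2 folds 1.73 and 1.64.

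The authors called peaks at these regions more often in the Acla libraries than in the Doxo libraries. A peak stood in both Doxo libraries at 1961 regions (48.4%) and in neither at 644 (15.9%). With Acla, 2698 (66.6%) had a peak in both libraries and 308 (7.60%) in neither. The same order held over all regions that Doxo and Acla share, where both Doxo libraries had a peak at 52.2% and both Acla libraries at 70.1%. All 4 treated libraries had a peak at 1313 regions (32.4%), against 41.7% of the regions of all 3 drugs. Recovered reads per region were also more numerous with Acla, with medians of 23 and 24 in the Doxo libraries and 68 and 56 in the Acla libraries, and the part of depth in the peak calls was not tested. For the regions of all 3 drugs, median reads were 34 and 36 in the Doxo libraries and 119 and 102 in the Acla libraries.

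The Doxo and Acla only regions were unevenly spread over the chromosomes. Chromosome 19, which is rich in genes and in G and C, held 333 of them (8.22%), against 2.0% of the regions of all 3 drugs, 0.908% of those of Doxo and diMe-Doxo only and 0.382% of those of diMe-Doxo and Acla only. The Doxo only regions had 5.26% there and the Acla only regions 0.759%. On chromosome 19 the 333 were 36.6% of the 909 regions that Doxo and Acla share. The share was 29.2% on chromosome 22 (96 of 329), 22.4% on chromosome 17 (184 of 821) and 21.1% on chromosome 16 (202 of 956), and its lowest values were 8.82% on the X chromosome and 8.95% on chromosome 10.

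**Figure D2:**
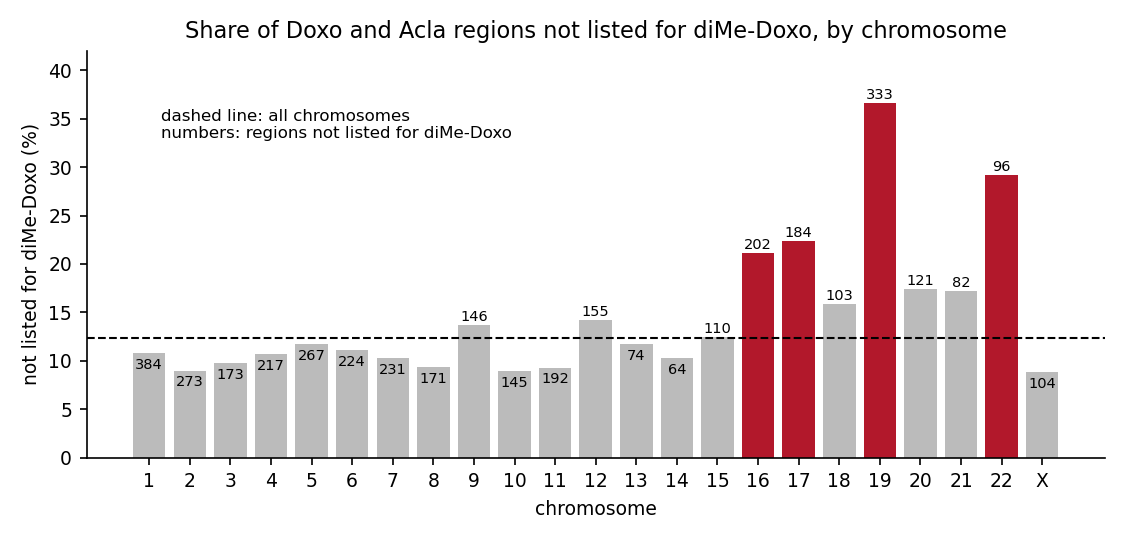
Percent of the regions listed for Doxo and Acla that the diMe-Doxo list leaves out, for each chromosome, with the number of such regions on or above each bar. The dashed line is 12.4% over all chromosomes, and chromosomes 16, 17, 19 and 22 are in red, where the bars reach 21.1%, 22.4%, 36.6% and 29.2%.

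Chromosomes 16, 17, 19 and 22, singled out after their values had been seen, held 815 of the 4052 (20.1%). They held 7.66% of the regions of all 3 drugs, 5.36% of those of Doxo and diMe-Doxo only, 3.0% of those of diMe-Doxo and Acla only, 16.9% of the Doxo only regions and 3.96% of the Acla only regions. In this placement the set lay nearest to the Doxo only regions. Among the 114 regions past the stricter limits, 44 (38.6%) lay on these 4 chromosomes and 20 (17.5%) on chromosome 19. The matching shares of all Doxo and Acla regions past those limits are not given here, so these values have no like background.

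The higher share on chromosome 19 was also seen within bins of the Acla fold, again as counts with no test. Of the chromosome 19 regions with an Acla log2 fold under 2, the diMe-Doxo list left out 106 of 141 (75.2%), against 27.0% on all other chromosomes. From 2 to 2.5 it left out 155 of 301 (51.5%), against 21.2%, and from 2.5 to 3 it left out 59 of 250 (23.6%), against 12.7%. From 3 to 3.5 the shares were 7.25% and 5.76%, and from 3.5 up they were 3.8% (3 of 79) and 0.982%. In bins of the authors' Doxo log2 fold the shares were 34.7% on chromosome 19 and 7.67% elsewhere from 4 to 5, and 17.5% and 5.36% from 5 up. Chromosome 19 thus had the higher share in each of these bins.

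**Figure D3:**
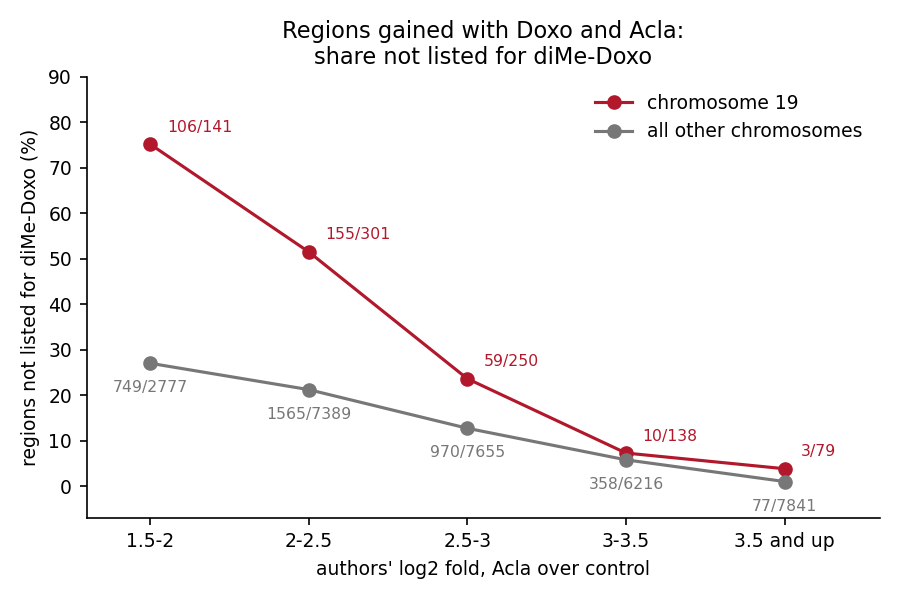
Percent of the regions listed for Doxo and Acla that the diMe-Doxo list leaves out, against the authors' log2 fold of Acla over control in 5 bins, with the number left out of all regions in each bin. Chromosome 19 (red) starts at 75.2% and all other chromosomes (grey) at 27.0%, and the last bin has 3.8% and 0.982%.

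On chromosome 19 these regions combined a high Doxo gain with a low Acla gain. Their median log2 folds in the authors' lists were 3.62 with Doxo and 2.16 with Acla, against 2.70 and 2.34 over the whole set. Median width there was 842 bp. The regions of all 3 drugs on chromosome 19 had medians of 3.89 with Doxo and 2.78 with Acla.

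Within the chromosomes, 1808 of the 2848 windows of 1 Mb with a listed region held at least 1 Doxo and Acla only region, with a median of 2. In 18 windows there were 10 or more, and 10 of these windows lay on chromosome 19. The highest number, 15, was reached in 4 windows. The window from 78 to 79 Mb on chromosome 17 had 15 among 34 regions shared by Doxo and Acla, beside 58 Doxo only regions. On chromosome 19 the window from 1 to 2 Mb had 15 among 35 beside 74 Doxo only regions, and the window from 3 to 4 Mb had 15 among 29 beside 59. The window from 5 to 6 Mb on chromosome 19 tied with them, with 15 among 35. In windows of 0.5 Mb the highest number was 13, from 38.5 to 39.0 Mb on chromosome 19.

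Many of these regions lay close to one that diMe-Doxo did gain. The nearest other region in the diMe-Doxo list was a median of 13.4 kb away, against 7.60 kb for the regions of all 3 drugs, and 1721 (42.5%) had one within 10 kb, against 56.7%. The share within 10 kb was 44.1% for the Acla only and 34.3% for the Doxo only regions, so such closeness was not particular to the set. Doxo regions and Acla regions were nearer, with medians of 9.33 and 9.45 kb, but their lists are longer (66720 and 61295 regions, against 52784 for diMe-Doxo). The nearest region of the set itself was 150 kb away, and 368 (9.08%) had one within 10 kb. Of the 4052, 1146 (28.3%) lay between 2 neighbours that were both listed for diMe-Doxo and 1102 (27.2%) between 2 that were not, against 33.1% and 27.7% of the regions of any list.

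Next to a Doxo and Acla only region, 29.9% of neighbours were regions of all 3 drugs, 25.3% were Doxo only, 17.4% were Acla only, 14.1% were diMe-Doxo and Acla only and 6.82% belonged to the set itself. Over any list those kinds made up 28.7%, 29.5%, 13.8%, 14.6% and 4.04% of regions. The neighbours therefore resembled the listed regions as a whole to within 5 percentage points for each of these kinds.

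Doxo and Acla were next compared directly with edgeR's quasi-likelihood test on recovered reads over all 32787 shared regions, with Benjamini-Hochberg adjustment and a limit of 0.05. The rule did not use this contrast, but the test uses the same drug libraries that placed the regions in the lists. The doses were 10 µM Doxo and 20 µM Acla, so drug and dose cannot be told apart. Among the 4052 regions, 1120 (27.6%) were called higher with Doxo than with Acla, against 26.6% of all shared regions, a share near that background when regions of any depth are counted. Only 50 (1.23%) were called lower with Doxo, against 11.3%, and 2882 (71.1%) were called neither way. All shared regions had passed the limits of the Doxo list, and high Acla folds were rare in the set. The low share called lower thus follows in part from how the set was chosen. With TMM factors, which assume equal typical signal with each drug, 1013 were called higher (background 23.5%) and 159 lower (background 18.7%). DESeq2 with its own size factors and the same adjustment called 915 higher (background 21.2%) and 40 lower (background 10.5%).

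The shares differed under a filter on reads. Among regions with a mean of at least 50 reads over the Doxo and Acla libraries, a limit chosen after seeing the data, 839 of 1755 (47.8%) were called higher with Doxo by the edgeR test, against 32.8% of all such shared regions. In the same fit 51 (2.91%) were called lower, against 16.1%. The median log2 difference was then 0.66 over the set and 0.12 over the shared regions. The filter rests on the same reads that are compared, so a region could pass it through high Doxo reads alone. The higher share is thus partly built in, and an effect of depth was not tested.

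By the libraries themselves, both Doxo values lay above both Acla values at 1730 regions (42.7%, background 39.3%) and below them at 469 (11.6%, background 25.9%). The median log2 difference of Doxo minus Acla was 0.27 over the set, against 0.12 over all shared regions. TMM factors moved the median over shared regions by -0.21, to -0.09, with 0.07 over the set. The set stood 0.15 above the shared regions with either set of factors. Other factors shift all regions by about the same amount, so this gap could hardly change. Without 1 library the median over the set was 0.18 (Acla library 2) to 0.47 (Acla library 1), which was 0.16 to 0.23 above the shared regions. The count called lower was 4 without Acla library 1, 24 without Doxo library 1, 40 without Acla library 2 and 63 without Doxo library 2, while the share of all shared regions called lower was 2.88%, 5.41%, 10.6% and 8.18% in the same fits.

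Calls of a higher Doxo signal were frequent on chromosome 19. There 211 of the 333 regions (63.4%) were called higher with Doxo and 1 lower by the same edgeR test, with a median log2 difference of 1.39. The regions of all 3 drugs on chromosome 19 had 318 of 576 (55.2%) called higher and 3 lower, with a median of 1.0, so a higher Doxo signal there was common to regions that diMe-Doxo gained too. On chromosome 17, 119 of 184 (64.7%) were called higher, against 47.6% of the regions of all 3 drugs there. On chromosome 3 it was 9.25%, against 22%. Off chromosome 19 the set had 909 of 3719 (24.4%) called higher and 49 (1.32%) lower, against 25.7% and 11.6% of all shared regions there, and a median of 0.22 (0.01 with TMM factors).

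**Figure D4:**
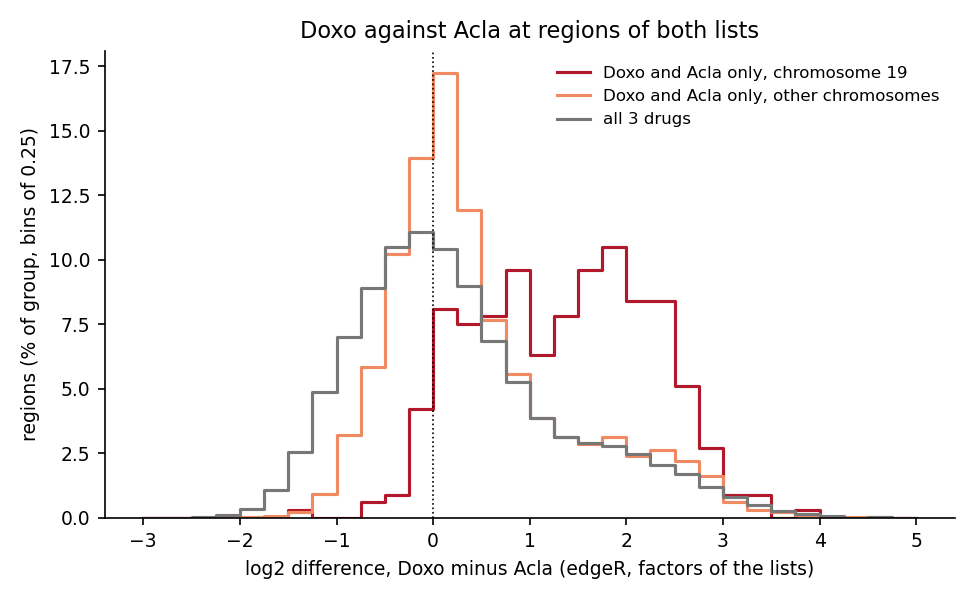
Distribution of the log2 difference of Doxo (10 µM) minus Acla (20 µM) over regions, as percent of each group in bins of 0.25, with the factors of the lists. The Doxo and Acla only regions of chromosome 19 (red) centre on a median of 1.39 and those of other chromosomes (orange) on 0.22, and the regions of all 3 drugs (grey) extend farther below 0 than either.

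Grouped by their call, the regions had the following signal and peaks, which partly restate the call. The 1120 called higher had medians of 47.6 and 52.8 normalised reads with Doxo and 12.6 and 13.5 with Acla. Their median width was 808 bp, and 466 of them (41.6%) lay on chromosomes 16, 17, 19 and 22, against 20.1% of the whole set. Regions of all 3 drugs were also often called higher there. Their shares were 40.2%, 47.6%, 55.2% and 43.8% on chromosomes 16, 17, 19 and 22, against 26.5% over all chromosomes. The 50 called lower had medians of 11 and 14.8 with Doxo and 30.2 and 23.3 with Acla, a median width of 1040 bp and 6 regions (12%) on those chromosomes. All 50 had an Acla peak in both libraries and 15 had a Doxo peak in both, whereas of the 1120 called higher 865 had a Doxo peak in both libraries and 486 an Acla peak in both. The 2882 called neither way had medians of 12.1 and 12.7 with Doxo and 13.8 and 10.9 with Acla, and 343 (11.9%) were on the 4 chromosomes.

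Regions that were already open in untreated cells were few and wider. The 108 with a peak in both control libraries had a median width of 1361 bp, the 215 with a peak in 1 had 1072 bp, and the 3729 without one had 693 bp. Median log2 folds in the authors' lists were 2.48, 2.62 and 2.70 with Doxo and 1.90, 2.01 and 2.36 with Acla, in the same order. The edgeR test called 43 of the 108 (39.8%), 90 of the 215 (41.9%) and 987 of the 3729 (26.5%) higher with Doxo than with Acla. Over all shared regions, whatever their control peaks, the share was 26.6%, and it was not split by control peak. Signal differed too, with medians in Doxo library 1 of 45.5, 35.5 and 14.9 normalised reads in the same order. The part of signal and width in these calls was not tested.

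Single regions show the forms that the gain took. By the larger of its FDRs in the authors' lists, the first was chr18:37380977-37383131, 2154 bp wide, with 421 and 512 normalised reads with Doxo, 34.4 and 22.8 with Acla, and 2.88 and 1.39 in the control. Neither control library had a peak, and the 3 groups did not overlap. Its log2 fold over control was 7.77 with Doxo (FDR 2.07e-12) and 3.71 with Acla (FDR 0.000306) in the authors' lists. Doxo stood above Acla by a log2 difference of 4.02 (edgeR adjusted p = 2.52e-116), or 3.82 with TMM factors (adjusted p = 4.63e-14). Its nearest region in the diMe-Doxo list lay 37.9 kb away.

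The next by FDR was chr7:49477676-49478666, 990 bp wide, with 105 and 125 normalised reads with Doxo, 25.6 and 22.8 with Acla, and 2.88 and 1.39 in the control. The third was chr19:34294994-34295773, 779 bp wide, with 64.0 and 58.4 with Doxo, 19.8 and 18.3 with Acla, and 1.44 and 1.39 in the control. At both regions each Doxo library was above each Acla library and each Acla library above each control library. The log2 difference of Doxo minus Acla was 2.25 at the region on chromosome 7 (edgeR adjusted p = 2.86e-21) and 1.68 at that on chromosome 19 (edgeR adjusted p = 5.11e-08).

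The largest excess of Doxo over Acla was at chr20:43726065-43727555, where the normalised reads were 163 and 184 with Doxo, 7.40 and 6.59 with Acla, and 1.44 and 1.39 in the control. At chr13:114796033-114797448 they were 143 and 183 with Doxo, 8.60 and 8.44 with Acla, and 1.44 and 1.39 in the control. The Doxo libraries stood far above the Acla libraries at each, and no Acla peak was called in either library at either region. The log2 differences were 4.62 (edgeR adjusted p = 2.55e-76) and 4.25 (edgeR adjusted p = 2.66e-66), and chr18:37380977-37383131 followed.

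The reverse order was most marked at chr16:65099289-65100205, with 9.95 and 4.93 normalised reads with Doxo, 28.6 and 24.7 with Acla, and 1.44 and 1.39 in the control. At chr1:177780568-177781486 the values were 12.1 and 14.1 with Doxo, 40.6 and 36.2 with Acla, and 1.44 and 5.55 in the control. At chr17:50839659-50841333 they were 5.69 and 16.2 with Doxo, 35.6 and 26.8 with Acla, and 1.44 and 2.77 in the control. In all 3 regions both Acla libraries were above both Doxo libraries. The log2 differences of Doxo minus Acla were -1.84, -1.55 and -1.51 (edgeR adjusted p = 0.000187, 0.000119 and 0.000668). The call on chromosome 17 was lost without Doxo library 1 (edgeR adjusted p = 0.139) and without Acla library 1 (edgeR adjusted p = 0.0634).

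**Figure D5:**
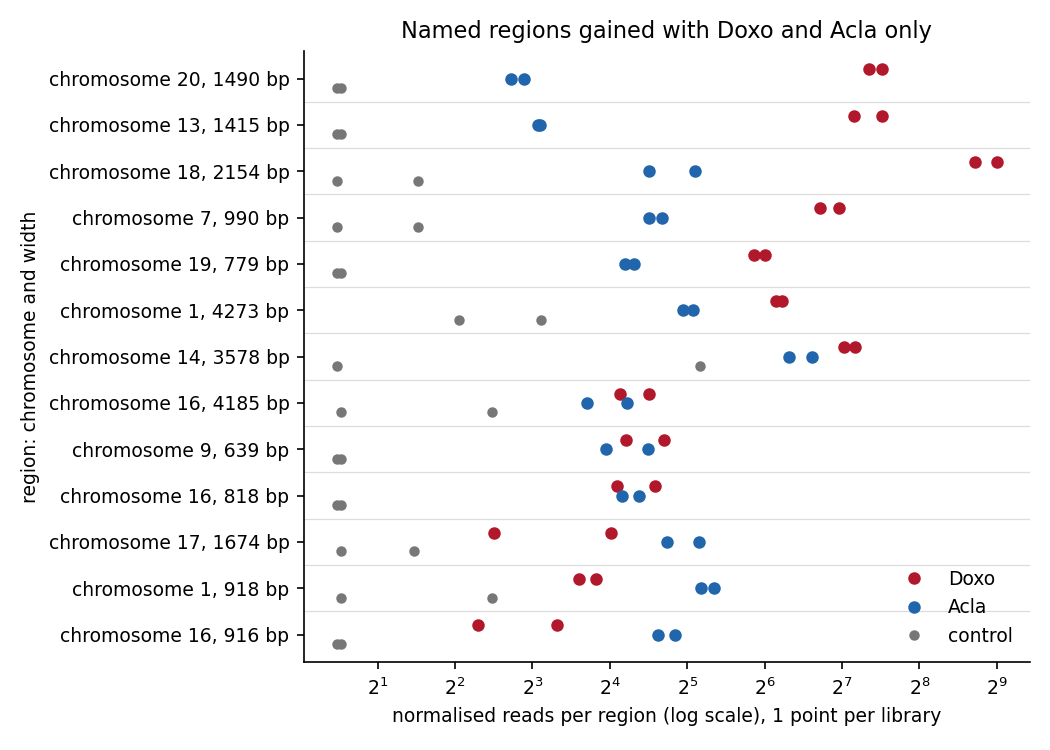
Normalised reads (log axis) in each library at 13 named regions, from the largest excess of Doxo over Acla at the top to the largest excess of Acla over Doxo at the bottom. Each point is 1 library. Red Doxo points lie right of blue Acla points at the top (163 and 184 against 7.40 and 6.59 on chromosome 20) and left of them at the bottom (9.95 and 4.93 against 28.6 and 24.7 on chromosome 16), and the grey control points lie left of all treated points of the same region.

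By the smaller of its log2 folds in the authors' lists, chr16:52473054-52473872 had the strongest gain common to both drugs, followed by chr9:1771468-1772107 and by the region on chromosome 19 above. The region on chromosome 16 had 17.1 and 23.9 normalised reads with Doxo, 20.8 and 17.9 with Acla, and 1.44 and 1.39 in the control. At that on chromosome 9 there were 18.5 and 26.1 with Doxo, 22.6 and 15.4 with Acla, and 1.44 and 1.39 in the control. The Doxo and Acla ranges overlapped at both regions, and both stood above the control. Log2 folds in the authors' lists were 3.86 with Doxo and 3.77 with Acla on chromosome 16, and 3.98 and 3.75 on chromosome 9. The log2 differences of Doxo minus Acla were 0.08 (edgeR adjusted p = 0.898) and 0.23 (edgeR adjusted p = 0.693), which does not show that the drugs act alike there, and leaving out 1 library moved them over -0.18 to 0.31 and -0.04 to 0.53.

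Of the 3 widest regions, 2 were already open in untreated cells. At chr1:17083958-17088231, 4273 bp wide, there were 71.1 and 74.6 normalised reads with Doxo, 30.8 and 33.8 with Acla, and 8.65 and 4.16 in the control. At chr16:33295112-33299297, 4185 bp wide, the values were 22.7 and 17.6 with Doxo, 13 and 18.7 with Acla, and 1.44 and 5.55 in the control. Both had a peak in each control library, and the Doxo and Acla libraries overlapped at the region on chromosome 16 only. The log2 differences of Doxo minus Acla were 1.17 (edgeR adjusted p = 1.47e-05) and 0.35 (edgeR adjusted p = 0.55).

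The third widest, chr14:38677391-38680969 (3578 bp), rested on uneven controls. Its normalised reads were 144 and 130 with Doxo, 98.2 and 79.4 with Acla, and 36.0 and 1.39 in the control, which were 25 reads in control library 1 and 1 read in control library 2. The treated libraries were above both controls. Its log2 fold in the authors' lists was 2.87 with Doxo (FDR 0.0299) and 2.17 with Acla (FDR 0.0792). Doxo stood above Acla by a log2 difference of 0.62 (edgeR adjusted p = 0.00283). That call was lost with TMM factors (edgeR adjusted p = 0.0533), without Doxo library 1 (edgeR adjusted p = 0.138) and without Acla library 2 (edgeR adjusted p = 0.0545).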

How the data were processed

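Per the submitters' processing notes, regions were compared with DiffBind on GRCh37. Not given in the sources used here are the aligner, peak caller, normalization and versions. The lists have no header, and their columns were read from the values. The deposited folds are log2 values of treated over control, and the deposited p-value and FDR of each region are the authors' own. The authors' lists also give the count of libraries with a called peak. In the deposited signal, read counts per region were multiplied by a factor that is constant within a library. Whether a start counts from 0 or 1 is not stated.

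Reads were recovered by dividing the signal by its step. In the Doxo and control libraries the step is the smallest value. In the Acla libraries, whose smallest values are 16 and 12 reads, it was read from the gaps between values. All values were whole within 0.1 reads (100%, largest departure 0.0145), and the edgeR test rests on this. Listed regions held 4405541 and 4837225 reads in the Doxo libraries, 7266289 and 5858214 in the Acla libraries, and 128353 to 253175 per control library within these lists. Full depths are unknown.

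Doxo and Acla were compared with edgeR 4.0.16 (R 4.3.3), using the authors' factors after the Acla list had been rescaled to the controls of the Doxo list. Alternatives were TMM, DESeq2 1.42.0, limma 3.58.1 on log2(signal + 1), filters on reads and leaving out libraries. The script was tested on simulated data. Overlaps used bedtools 2.31.1, and the rest Python 3.11.15 with numpy 2.4.6, pandas 2.3.3, scipy 1.17.1 and matplotlib 3.10.9.

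Named regions are the 3 with the lowest value of their larger FDR, the 3 widest, the 3 with the highest smaller log2 fold, the 3 highest and 3 lowest called differences, the 3 fullest windows and those nearest the limits. The regions, lists and rules were chosen with earlier results of these data known. GC content, motifs, gene starts and gene lists were planned but not analysed here, as no GRCh37 genome or annotation was used.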

Additional observations from a re-analysis of the deposited data

How the results depend on the processing

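Identical coordinates, 1 shared bp and a 50% reciprocal overlap gave the same 4052 regions. Stricter limits left 1641 (FDR of at most 0.05 in both lists). At FDR of at most 0.01 and log2 fold of at least 2 in both lists, 114 were left. With those limits in all 3 lists the rule gave 1301 regions, which is a different set. It holds the 114, and its other regions are in the authors' diMe-Doxo list. In the 114, the median log2 fold of the authors' lists was 3.67 with Doxo and 3.06 with Acla. No control peak was called at 95.6% of them, and 17.5% lay on chromosome 19. These values were not set against all shared regions past the same limits. The median Acla log2 fold was 1.79 in the 180 regions with more than 1 read in each control library. Both control libraries stood at 1 read at 38.1% of regions, whereas 92.0% had no control peak. No listed control value is below 1 read, so whether it can stand for 0 reads is unknown. By covered bp, chromosome 19 held 9.99%. Of the regions, 16.6% lay within 2 kb and 81.8% within 50 kb of a diMe-Doxo region.

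For Doxo against Acla, the count called higher was 915 with DESeq2 (22.6%, background 21.2%), a share near that background. The count called lower was 159 with TMM factors, 40 with DESeq2 and 4 to 63 without 1 library. On the scale of control library 1 or 2 alone, chosen after seeing the data, it was 32 (background 9.23%) or 82 (background 13.7%). Called regions were higher with Doxo in 95.7% of cases with the factors of the lists, against 70.2% over all shared regions. With TMM factors the share was 86.4%, against 55.7%. The filter at a mean of 20 reads removed no region, as the lowest mean was 20.25. Values under it thus could not differ, though they count as kept in the tally that follows. The filter at 50 was chosen after seeing the data. Of the values for the 13 named regions, 130 kept direction and call, 6 lost the call and 7 turned. The difference at chr16:52473054-52473872 was -0.13 with TMM factors, -0.08 with DESeq2, -0.18 (Doxo library 2) to 0.31 without 1 library and -0.00016 on the scale of control library 2. That at chr9:1771468-1772107 was -0.04 (Doxo library 2) to 0.53 without 1 library. Both were also below 0, at -0.02, without Acla library 2. The cause was not tested.

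No paired analysis was possible because the libraries carry no replicate numbers that pair them. Libraries could not be left out of the authors' own folds. GC content and gene starts were not run.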

Other observations

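Windows with many of these regions differed in their other contents. From 9 to 10 Mb on chromosome 5 there were 11 Doxo and Acla only regions, beside 36 regions of all 3 drugs, 26 of diMe-Doxo and Acla only, 30 of Acla only and 3 of Doxo only. From 32 to 33 Mb on chromosome 19 there were 12, with 4 Doxo only regions. The chromosome 19 windows with 15 had 52 to 74 Doxo only regions each. These windows were chosen after their values had been seen.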
